A study of Mus musculus with 11 samples.

Results

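Intestinal epithelial cells (IECs) of the ileum were compared between mice lacking O-GlcNAc transferase in the intestinal epithelium (Vil-Ogt KO) and wild-type (WT) mice, gene by gene over every gene of the ileum table that carries a name. Of 16521 loci in that table, 13016 carried a gene name, and after the best expressed locus was kept for each repeated name these gave 12675 named genes. Vil-Ogt KO mice carry floxed alleles of Ogt on a C57BL/6 background together with Cre recombinase under the Villin promoter, which is active in the epithelium of the small and large intestine. WT mice were the comparison group, and all donors were 10-week-old males. The epithelium was released from opened tissue by shaking for 30 min at 37 °C in buffered saline that held 10 mM of the chelator EDTA. The series lists 3 libraries of Vil-Ogt KO ileum and 2 libraries of WT ileum, each made from RNA pooled in equal amounts, with no statement of how many mice went into a library. The deposited table holds a single value per genotype and gene, as a fragment count scaled to transcript length and to the number of mapped fragments (FPKM), so the differences below have no replicate check and carry no SD, n or p-value. The number of reads behind each value is unknown.

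O-GlcNAc transferase (OGT) attaches a single N-acetylglucosamine sugar to serine and threonine residues of nuclear, cytosolic and mitochondrial proteins, and the hydrolase OGA, encoded by Mgea5 in this annotation, removes it. The donor sugar, UDP-GlcNAc, is made from glucose, glutamine, acetyl-CoA and UTP, so the modification is often described as a nutrient sensor. The ileal epithelium consists mainly of absorptive enterocytes that digest and take up food, together with mucus-secreting goblet cells, antimicrobial Paneth cells, hormone-secreting enteroendocrine cells, tuft cells and the dividing cells of the crypts. The ileum is the segment that recovers bile acids and vitamin B12, whereas the colon mainly recovers water and salt.

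Values are given throughout as FPKM in WT first and FPKM in Vil-Ogt KO second. The difference is Vil-Ogt KO minus WT on the log2(FPKM + 1) scale, and it understates the change of genes with low FPKM. A gene was counted as higher or lower in Vil-Ogt KO ileum where this difference was at least 1 or at most -1, that is at least 2-fold on that scale. Groups of genes are described by these counts and by their median difference, to be read beside 9.18% higher, 9.18% lower and a median of -0.06 over all named genes.

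The label of the tissue was checked first, because it bears on every comparison that follows. Both genotypes carried epithelial genes at high levels: Krt8, a keratin of simple epithelia, stood at 4096 FPKM in WT and 5043 FPKM in Vil-Ogt KO ileum, a difference of 0.30. Both also carried Fabp6, the ileal bile acid binding protein, at 4153 FPKM in WT and 15393 FPKM in Vil-Ogt KO ileum, a difference of 1.89, against 11.6 FPKM in WT colon on its own normalization. WT ileum nevertheless carried genes typical of the large intestine. Car1, the carbonic anhydrase of the colonic surface, was listed at 5914 FPKM in WT and 170.1 FPKM in Vil-Ogt KO ileum, a difference of -5.11. Gsdmc4, a gasdermin C gene of the large intestine, was listed at 449 FPKM in WT against 2.17 FPKM in KO ileum (-7.15). Aqp8, a water channel of the colonic surface, had 70.5 FPKM in WT against 0.257 FPKM in KO ileum (-5.83). Of 16 measured large-intestine markers, 13 were lower in Vil-Ogt KO ileum and none was higher, with a median of -2.03, and their summed level was 11661 FPKM in WT and 2013 FPKM in KO ileum. Of 29 small-intestine markers, 27 were higher and none was lower, with a median of 2.89, and their summed level was 7414 FPKM in WT and 48302 FPKM in KO ileum. In WT colon, on its own normalization, 21 measured large-intestine markers summed to 13896 FPKM and 25 small-intestine markers to 1084 FPKM. WT ileum thus carried large-intestine markers at a summed level of the same order as WT colon. The 10 carbonic anhydrases measured in WT colon summed to 1247 FPKM, below Car1 alone in WT ileum. The region of intestine represented in the pooled material and the genotype cannot be told apart in these values, and libraries could not be left out because only pooled values were given.

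**Figure D1:**
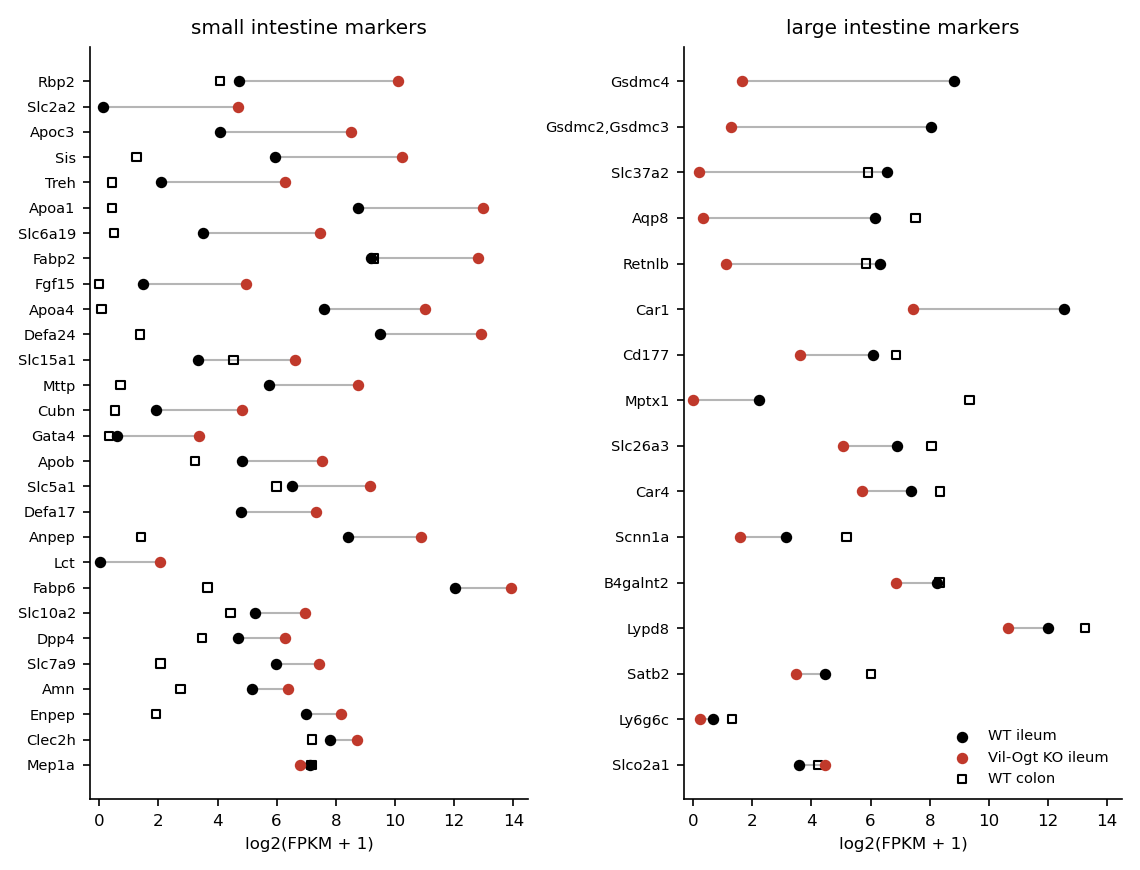
Levels of measured small-intestine and large-intestine marker genes in WT ileum (black circles), Vil-Ogt KO ileum (red circles) and, where listed, WT colon (open squares), as log2(FPKM + 1), 1 pooled value each. The red circle lies to the right of the black one for 27 of the 28 small-intestine markers drawn and to the left for 15 of 16 large-intestine markers.

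Markers of cells other than epithelium were read in the same way. Of 18 markers of T cells and intraepithelial lymphocytes, 12 were higher and none lower (median 1.58), with a summed level of 117 FPKM in WT and 632 FPKM in KO ileum. Gzma, a granule protease of these cells, was at 40.5 FPKM in WT and 304 FPKM in Vil-Ogt KO ileum, a difference of 2.88. The T cell receptor subunit Cd3e stood at 3.92 FPKM in WT against 18.9 FPKM in KO ileum (2.02). Of 15 myeloid markers, 7 were higher and 2 lower (median 0.94, summed level 68.4 FPKM in WT and 98.4 FPKM in KO ileum), whereas the 3 averaging 10 FPKM or more had a median of -1.57. The neutrophil genes S100a8 (0.166 against 10.3 FPKM, 3.27) and S100a9 (0.209 against 9.13 FPKM, 3.07) were near 0 in WT. The red cell genes were higher in 3 of 3 cases, with the joint locus Hba-a1,Hba-a2 at 0.889 FPKM in WT against 31.8 FPKM in KO ileum (4.12). No B cell marker of 10 was higher or lower (median -0.18), and no stromal marker of 10 was higher while 2 were lower (median -0.68), Dcn at 20.8 FPKM in WT against 6.87 FPKM in KO ileum (-1.47) among them. Of 3 pancreatic enzymes, Pnlip was listed at 0 in WT and 1.82 FPKM in KO ileum, and Cela1 was listed at 21.9 FPKM in WT against 17.5 FPKM in KO ileum (-0.30). The part of these cells in the results below was not tested, and in bulk RNA a smaller number of cells of a type and less RNA per cell cannot be told apart.

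Across the 12675 named genes, 1164 were higher and 1164 lower in Vil-Ogt KO ileum, 9.18% in each direction, while 81.6% lay within 2-fold. The tails were not even. A difference of at least 4 was seen for 31 genes upward and 20 downward, and a difference of at least 3 for 96 upward and 43 downward. At a difference of at least 5 the lean was reversed, with 10 upward and 13 downward. The quartiles of the difference were -0.52 and 0.41. Of the 110 genes averaging 1000 FPKM or more, 17 were higher and 24 lower, with a median of -0.59, so the most abundant transcripts lay below the remainder. The 10 most abundant genes made up 12% of the summed FPKM in WT and 11.7% in KO ileum. In WT the first ranks belonged to the antimicrobial lectins Reg3b (27175 against 10016 FPKM, -1.44) and Reg3g (13777 against 5955 FPKM, -1.21). In KO ileum Fabp6 led with 15393 FPKM, followed by Reg3b, and the next was Crip1, a small zinc-binding LIM protein of the gut, at 2702 FPKM in WT against 8023 FPKM in KO ileum (1.57).

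**Figure D2:**
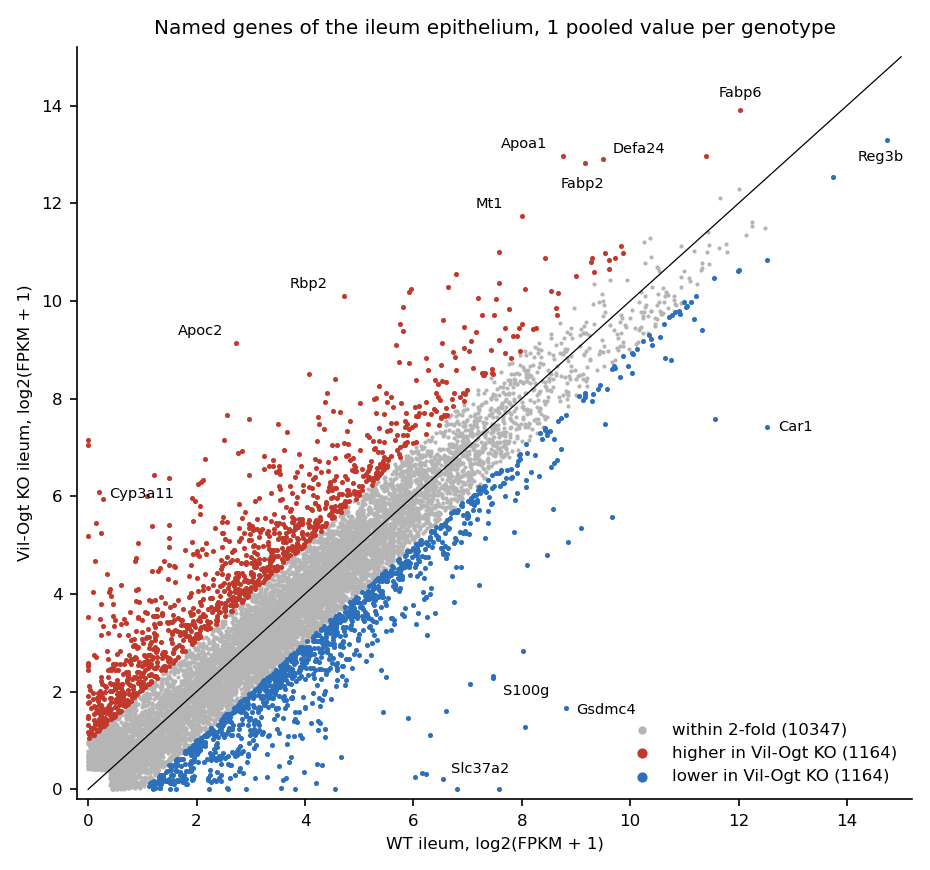
Level of each named gene in WT ileum (horizontal axis) and in Vil-Ogt KO ileum (vertical axis), both as log2(FPKM + 1), with genes higher in KO ileum in red, genes lower in blue and the diagonal as a line. The 1164 red genes and the 1164 blue genes spread over the whole range of levels.

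Ogt itself, the targeted X-linked gene, stood at 10.5 FPKM in WT and 3.92 FPKM in Vil-Ogt KO ileum, a difference of -1.22, and in the colon at 32.4 FPKM in WT and 8.17 FPKM in Vil-Ogt KO. The value covers the whole locus, so the transcript left in the KO ileum cannot be split into floxed and other exons. Mgea5, which encodes the opposing hydrolase, was lower as well, at 22 FPKM in WT and 5.43 FPKM in Vil-Ogt KO ileum, a difference of -1.84. Of 13 measured genes of O-GlcNAc cycling and UDP-GlcNAc synthesis, 4 were higher and 3 lower, with a median of 0.30. Uap1l1, a relative of the enzyme that forms UDP-GlcNAc, was higher at 13.1 FPKM in WT against 83.3 FPKM in KO ileum (2.58). Both glucosamine-6-phosphate deaminases were higher. Gnpda1 was at 6.82 FPKM in WT against 33.4 FPKM in KO ileum (2.14). For Gnpda2 the values were 4.72 FPKM in WT against 11.6 FPKM in KO ileum (1.13). The deacetylase Amdhd2 was higher at 43.1 FPKM in WT against 111 FPKM in KO ileum (1.34). The deaminases and Amdhd2 act in the direction that returns hexosamine to glycolysis. Gfpt1, the rate-limiting enzyme in the opposite direction, stood at 120.3 FPKM in WT against 182 FPKM in KO ileum (0.60), within 2-fold. Eogt, which places O-GlcNAc on extracellular domains in the endoplasmic reticulum, was lower at 3.46 FPKM in WT against 1.13 FPKM in KO ileum (-1.07).

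Many of the highest differences lay in nutrient digestion and uptake. Brush border peptidases, which cut peptides at the apical membrane, had 14 of 17 measured members higher and 0 lower (median 1.84). The dipeptidyl carboxypeptidase Ace was listed at 9.65 FPKM in WT against 97 FPKM in KO ileum (3.20). Aminopeptidase N, Anpep, had 343 FPKM in WT against 1885 FPKM in KO ileum (2.46). Inside the cell, prolidase Pepd (47.2 against 261 FPKM, 2.45) and the dipeptidase Cndp2 (133 against 580.0 FPKM, 2.12) were higher as well. Sugar-splitting enzymes and alkaline phosphatases were higher in 5 of 6 cases, with a median of 2.27. Sucrase-isomaltase, Sis, was at 61 FPKM in WT and 1209 FPKM in Vil-Ogt KO ileum, a difference of 4.29. Trehalase, Treh, was listed at 3.23 FPKM in WT against 77.2 FPKM in KO ileum (4.21). Lactase, Lct, stood at 0.0257 FPKM in WT against 3.12 FPKM in KO ileum (2.0), still a low level.

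Sugar uptake and fructose use had 10 of 17 measured members higher and 0 lower (median 1.68). Transporters of both membranes were among them. The sodium-glucose cotransporter Slc5a1 was listed at 91.1 FPKM in WT against 564 FPKM in KO ileum (2.62). The apical fructose transporter Slc2a5 had 1.83 FPKM in WT against 23.1 FPKM in KO ileum (3.09). The basolateral glucose and fructose exit Slc2a2 was at 0.0928 FPKM in WT and 24.6 FPKM in Vil-Ogt KO ileum, a difference of 4.55. Within the cell, ketohexokinase Khk, which phosphorylates fructose, stood at 24.1 FPKM in WT against 211 FPKM in KO ileum (3.08).

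Amino acid and peptide transporters had 8 of 21 measured members higher and 2 lower (median 0.30). Slc6a19, which encodes the apical neutral amino acid transporter B0AT1, had 10.3 FPKM in WT and 177 FPKM in Vil-Ogt KO ileum, a difference of 3.98. The oligopeptide transporter Slc15a1 was at 9.13 FPKM in WT against 97 FPKM in KO ileum (3.27). The cystine and dibasic amino acid transporter was higher in both its parts. Its heavy chain Slc3a1 stood at 34.3 FPKM in WT against 152 FPKM in KO ileum (2.12). Its light chain Slc7a9 was listed at 61.8 FPKM in WT against 171 FPKM in KO ileum (1.46). Opposite to these, Slc6a14, a broad-range amino acid transporter best known from distal gut, was lower at 44.3 FPKM in WT and 3.89 FPKM in Vil-Ogt KO ileum, a difference of -3.21. The other lower member, chosen for naming after its value was seen, was the glutamate and aspartate transporter Slc1a1 at 66.7 FPKM in WT against 28.2 FPKM in KO ileum (-1.21).

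**Figure D3:**
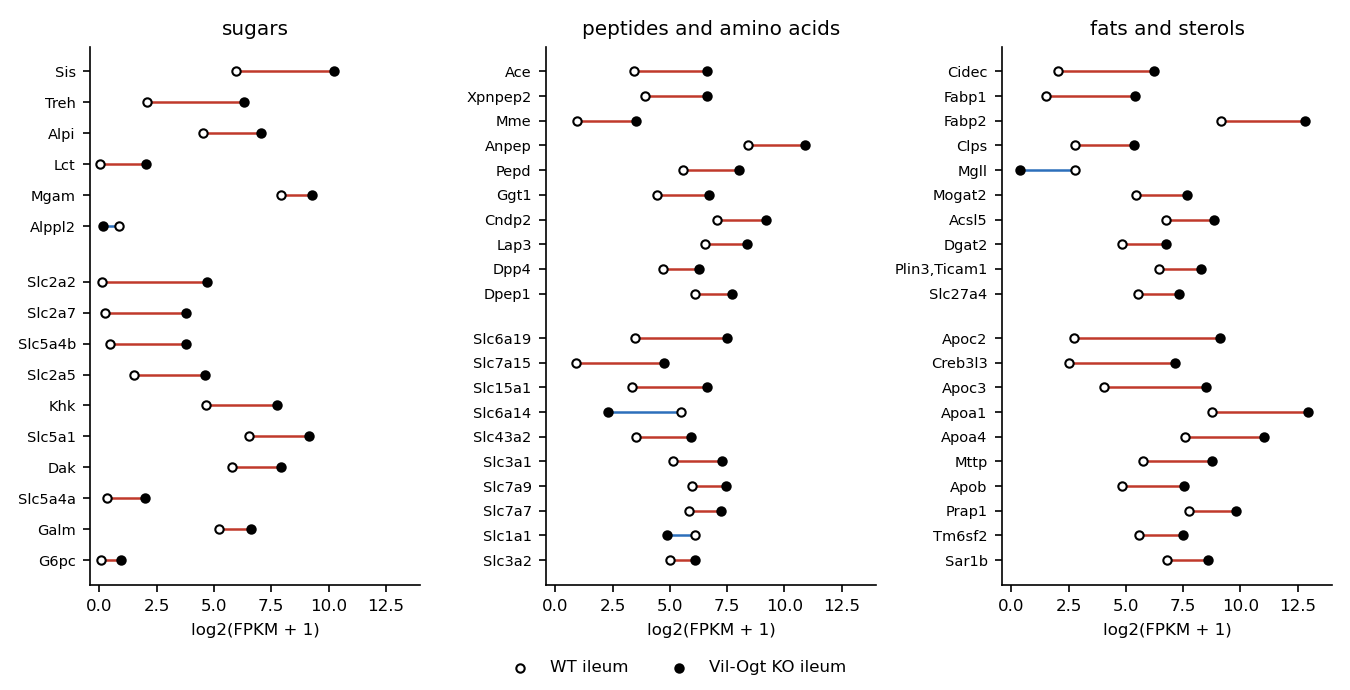
Levels of genes of sugar, peptide and fat handling in WT ileum (open circles) and Vil-Ogt KO ileum (filled circles) as log2(FPKM + 1), with red lines where the KO value is above WT and blue lines where it is below. Only the members of each list with the largest absolute difference are drawn. Slc6a14, Slc1a1, Mgll and Alppl2 are the genes drawn with the KO value below the WT value. Over all measured members, 7 of 21 amino acid and peptide transporters and 4 of 22 fat uptake genes lay below WT. The same held for 3 of 17 brush border peptidases, 3 of 18 chylomicron genes and 2 of 17 sugar uptake genes.

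Fat handling was described in steps. Uptake and re-esterification had 13 of 22 measured members higher and 2 lower (median 1.39). Fabp2, the intestinal fatty acid binding protein, had 576 FPKM in WT against 7231 FPKM in KO ileum (3.65). Its liver-type relative Fabp1 was at 1.83 FPKM in WT against 41.4 FPKM in KO ileum (3.90). Mogat2, which rebuilds diacylglycerol from monoacylglycerol, was higher at 42.8 FPKM in WT against 205 FPKM in KO ileum (2.23), as was Dgat2 (27.5 against 105 FPKM, 1.90), which completes triacylglycerol. Cidec, which fuses lipid droplets, stood at 3.1 FPKM in WT and 75.1 FPKM in Vil-Ogt KO ileum, a difference of 4.22. Mgll, the monoacylglycerol lipase that works against re-esterification, was lower at 5.86 FPKM in WT against 0.304 FPKM in KO ileum (-2.39). Chylomicron and apolipoprotein genes had 12 of 18 measured members higher and 0 lower (median 1.85), and their summed level was 1874 FPKM in WT and 14142 FPKM in KO ileum. Apoc2, the cofactor of lipoprotein lipase, showed the highest difference of any gene outside gene models and small RNAs, at 5.62 FPKM in WT and 560.3 FPKM in Vil-Ogt KO ileum, a difference of 6.41. Apob, the structural protein of the chylomicron, was listed at 27.5 FPKM in WT against 186 FPKM in KO ileum (2.72). Mttp, which loads it with lipid, had 52.3 FPKM in WT against 431 FPKM in KO ileum (3.02). Creb3l3, a membrane-bound transcription factor of lipid genes in liver and gut, was at 4.69 FPKM in WT and 141 FPKM in Vil-Ogt KO ileum, a difference of 4.64. Genes for Apoa1, Apoc3 and Apoa4 lie side by side on chromosome 9 (mm10, chr9:46228395-46243458), and all 3 named genes of this stretch exceeded a difference of 2. The bounds of the stretch were set by genes past that difference, so this count is partly fixed by how it was drawn. Apoa1, the main protein of HDL, stood at 434 FPKM in WT against 7968 FPKM in KO ileum (4.20). Apoc3, an inhibitor of lipoprotein lipase, was listed at 15.8 FPKM in WT against 362 FPKM in KO ileum (4.44). Apoa4, which is secreted with chylomicrons, had 191 FPKM in WT against 2062 FPKM in KO ileum (3.42).

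Promoters of the chylomicron group were searched for CAAAGNNCA on both strands, a spaced motif of the kind bound by HNF4 and PPAR family receptors. Windows held 300 bases (250 before and 50 after the start, from RefSeq, GRCm38.p6), with 1 or more per gene. A gene counted where any of its windows held the motif, whereas all windows were counted singly, so these shares are unlike measures. The motif was found in 4 of 15 genes of this group with a window (26.7%). It was found in 11.2% of genes higher in KO ileum, 6.4% of those lower, 6.38% of all named genes and 6.36% of all windows. TATAAA was found in 15.8% of genes higher in KO ileum, 11.5% of those lower, 9.05% of all named genes and 13.6% of all windows. A match is a string of letters and not a shown binding site. The 250 bases before the start are printed 5′ to 3′ for 3 genes of the group, with the match in capitals. In Apob the TATA box letters TATAAA are also in capitals. These genes were taken in order of difference from members whose printed bases hold the match, so members with larger differences and no match were passed over.
Creb3l3 (chr10:81092592-81092841, minus strand): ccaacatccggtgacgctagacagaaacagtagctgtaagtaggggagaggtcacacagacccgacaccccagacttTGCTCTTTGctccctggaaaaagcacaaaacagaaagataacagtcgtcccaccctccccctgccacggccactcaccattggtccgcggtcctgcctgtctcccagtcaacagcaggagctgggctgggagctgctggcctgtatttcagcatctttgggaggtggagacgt
Apoa4 (chr9:46240594-46240843, plus strand): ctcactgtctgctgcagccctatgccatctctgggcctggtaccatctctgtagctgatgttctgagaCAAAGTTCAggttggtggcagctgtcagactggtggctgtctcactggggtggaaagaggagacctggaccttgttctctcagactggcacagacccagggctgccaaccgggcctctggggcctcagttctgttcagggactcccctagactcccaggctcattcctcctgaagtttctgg
Apob (chr12:7977427-7977676, plus strand): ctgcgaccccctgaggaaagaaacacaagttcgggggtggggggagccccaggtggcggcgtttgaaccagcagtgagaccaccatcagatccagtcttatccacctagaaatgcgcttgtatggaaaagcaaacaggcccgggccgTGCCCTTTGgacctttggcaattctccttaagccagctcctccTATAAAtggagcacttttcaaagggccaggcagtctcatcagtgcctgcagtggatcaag

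Bile acids are the cargo for which the ileum is specialised. The bile acid and FXR group had 6 of 10 measured members higher and 1 lower (median 1.61). The apical importer Slc10a2 was at 37.8 FPKM in WT against 124 FPKM in KO ileum (1.69). Of the basolateral exporter subunits, Slc51a stood at 256 FPKM in WT against 739 FPKM in KO ileum (1.53). Its partner Slc51b was listed at 267 FPKM in WT against 1218 FPKM in KO ileum (2.19). Fgf15, the hormone through which the ileum limits bile acid synthesis in liver, was listed at 1.8 FPKM in WT against 30.3 FPKM in KO ileum (3.48). Abcc3, a basolateral export pump, was lower at 53.1 FPKM in WT against 22 FPKM in KO ileum (-1.23). Sterol uptake and efflux genes had 6 of 13 measured members higher and 0 lower (median 0.71), with the cholesterol importer Npc1l1 at 23.1 FPKM in WT against 132 FPKM in KO ileum (2.46). Soat2, which esterifies the absorbed cholesterol, had 10.6 FPKM in WT against 69.6 FPKM in KO ileum (2.60). Both subunits of the returning pump were higher. Abcg5 was at 32.2 FPKM in WT against 68.6 FPKM in KO ileum (1.07). Abcg8, with which it pairs, stood at 12.2 FPKM in WT against 50.9 FPKM in KO ileum (1.97). The preceding nutrient groups lay in the direction of the small-intestine markers, some of which they share, whose share of summed FPKM was 1.10% in WT and 7.53% in KO ileum, and the part of that shift in them was not tested. With the region and other-cell markers taken out of the lists, a setting chosen after seeing the data, the median was 1.37 for the sugar-splitting enzymes, 1.14 for the chylomicron group and 0.78 for the bile acid group, each at least 0.5 below its value with them. It was 1.98 for the brush border peptidases, 1.42 for sugar uptake and fructose use and 1.37 for fat uptake and re-esterification.

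Vitamin uptake and retinoid genes had 10 of 20 measured members higher and 0 lower (median 0.85). Rbp2, the cellular retinol carrier of enterocytes, was listed at 25.5 FPKM in WT and 1098 FPKM in Vil-Ogt KO ileum, a difference of 5.38. Bcmo1, which cleaves beta-carotene to retinal, was listed at 1.34 FPKM in WT against 7.73 FPKM in KO ileum (1.90). Both parts of the receptor for the vitamin B12 and intrinsic factor complex were higher. Cubn, the binding part, had 2.83 FPKM in WT against 27.3 FPKM in KO ileum (2.89). Amn, which anchors it, was at 35.3 FPKM in WT against 82.7 FPKM in KO ileum (1.21). The biotin and pantothenate transporter Slc5a6 was higher at 5.78 FPKM in WT against 16.2 FPKM in KO ileum (1.35).

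Metal handling genes had 4 of 20 measured members higher and 2 lower (median 0.25). The metallothioneins, which bind zinc and copper, were higher. Mt1 stood at 254 FPKM in WT and 3397 FPKM in Vil-Ogt KO ileum, a difference of 3.73. For Mt2 the values were 74.5 FPKM in WT against 452 FPKM in KO ileum (2.58). Mt1 ranked among the 15 most abundant genes of KO ileum. Slc40a1, ferroportin, the only known cellular iron exporter, was lower at 42.2 FPKM in WT and 2.0 FPKM in Vil-Ogt KO ileum, a difference of -3.85, whereas Heph, the ferroxidase that works beside it, was listed at 36.5 FPKM in WT against 68.1 FPKM in KO ileum (0.88). The ferritin subunits were within 2-fold. The heavy chain Fth1 had 1795 FPKM in WT against 1089.9 FPKM in KO ileum (-0.72). The light chain Ftl1 was at 1243 FPKM in WT against 1105 FPKM in KO ileum (-0.17). Zinc carriers were split, with Slc30a2 higher (4.99 against 19.8 FPKM, 1.80) and Slc39a8 lower (12 against 3.53 FPKM, -1.52). Calcium, phosphate and magnesium genes had 2 of 11 measured members higher and 2 lower (median -0.58). S100g, calbindin-D9k, which ferries calcium across the enterocyte, stood at 176 FPKM in WT and 3.86 FPKM in Vil-Ogt KO ileum, a difference of -5.19. Slc34a2, the apical sodium-phosphate cotransporter, lay in the opposite direction at 18 FPKM in WT and 197 FPKM in Vil-Ogt KO ileum, a difference of 3.38. The vitamin D receptor gene Vdr was listed at 100.4 FPKM in WT against 71.5 FPKM in KO ileum (-0.48).

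Genes of salt, acid and water movement held more lower than higher members. Chloride, bicarbonate and sodium transport had 3 of 24 measured members higher and 7 lower (median -0.11). On the secretory side, the chloride channel Cftr was lower at 36 FPKM in WT against 9.19 FPKM in KO ileum (-1.86). Slc12a2, which loads chloride across the basolateral membrane, was lower at 72.5 FPKM in WT against 19.2 FPKM in KO ileum (-1.87). The bicarbonate entry transporter Slc4a7 was listed at 19.4 FPKM in WT against 2.87 FPKM in KO ileum (-2.40). On the absorptive side, the chloride-bicarbonate exchanger Slc26a3 was lower too, at 117 FPKM in WT against 32.2 FPKM in KO ileum (-1.83). Guca2b, uroguanylin, a peptide that raises cyclic GMP and fluid secretion, was higher at 145 FPKM in WT and 1067 FPKM in Vil-Ogt KO ileum, a difference of 2.87, while its relative Guca2a was listed at 1468 FPKM in WT against 1641 FPKM in KO ileum (0.16). A pair of calcium-activated chloride channel regulators lay apart. Clca4 had 355 FPKM in WT against 26.9 FPKM in KO ileum (-3.67). Clca6 was at 76.6 FPKM in WT against 385 FPKM in KO ileum (2.32). The sodium pump subunit Atp1b1 (734 against 962 FPKM, 0.39) was within 2-fold. The median of this salt group was 0.05 once the region and other-cell markers were taken out.

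Potassium channels, which recycle potassium and hold the membrane potential, had 1 of 10 measured members higher and 5 lower (median -0.82). The basolateral channel Kcnn4 was lower at 44 FPKM in WT against 8.51 FPKM in KO ileum (-2.24). Kcnq1, another basolateral channel, was lower at 64.4 FPKM in WT against 22.3 FPKM in KO ileum (-1.49). Kcne3, the subunit that opens Kcnq1, stood at 147 FPKM in WT against 52 FPKM in KO ileum (-1.48). Water channels were split, with 2 higher and 2 lower of 6. Aqp4, a basolateral water channel, was lower at 23.9 FPKM in WT against 6.73 FPKM in KO ileum (-1.69). Aqp7, which also passes glycerol, was higher at 0.314 FPKM in WT against 4.53 FPKM in KO ileum (2.07). Carbonic anhydrases, which interconvert carbon dioxide and bicarbonate, had 1 of 9 measured members higher and 5 lower (median -1.11), and their summed level was 6351 FPKM in WT and 349.7 FPKM in KO ileum, most of the WT sum being Car1. Car2, a cytosolic form, was listed at 176 FPKM in WT and 4.03 FPKM in Vil-Ogt KO ileum, a difference of -5.14. Car4, which is tethered to the apical membrane, had 165 FPKM in WT against 50.9 FPKM in KO ileum (-1.68). Car13 was the only member that was higher, at 28.1 FPKM in WT against 92.4 FPKM in KO ileum (1.68). Car1, Car4, Aqp8 and Slc26a3 are also large-intestine markers, so these lists overlap with the region check.

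**Figure D4:**
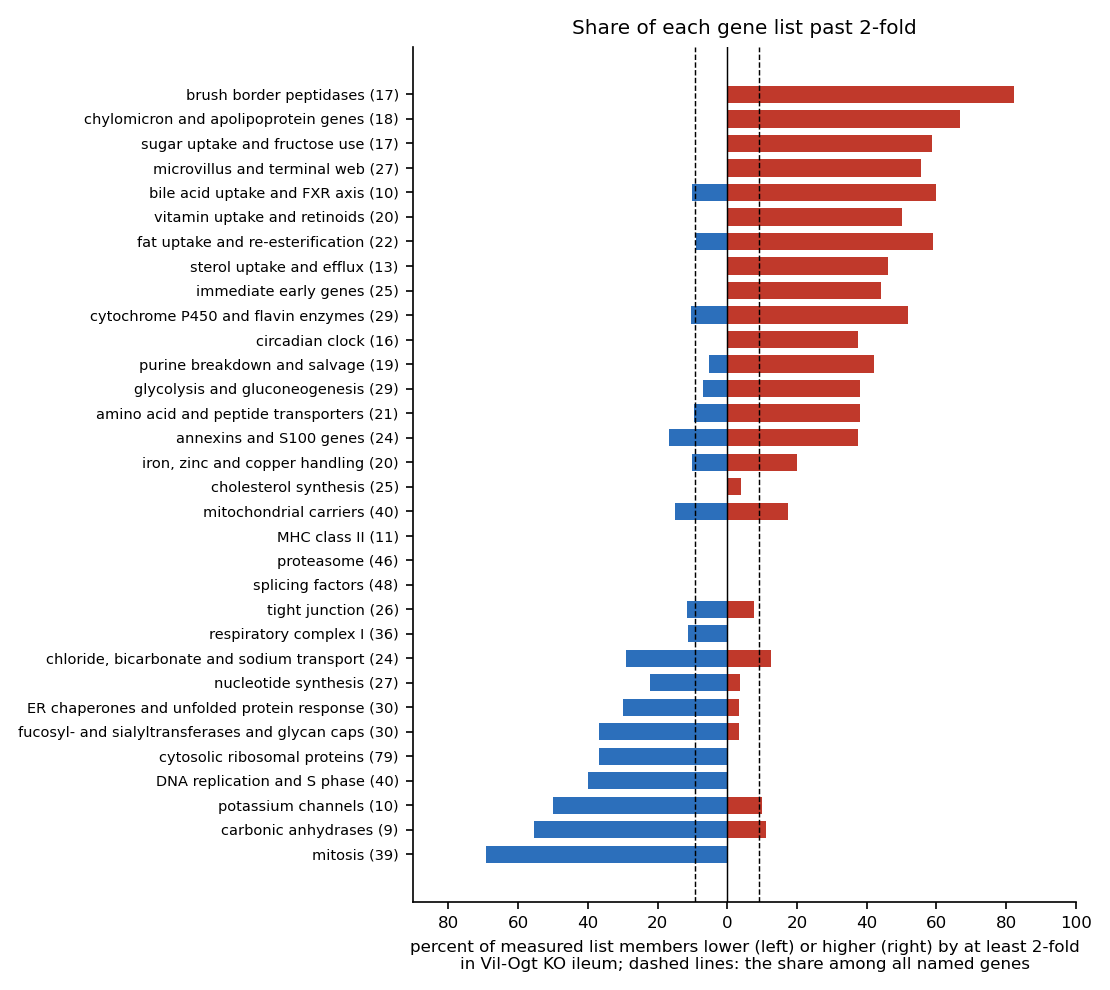
Percentage of measured members higher (right) and lower (left) in Vil-Ogt KO ileum for each gene group drawn, with the share over all named genes, 9.18% in each direction, as dashed lines. Nutrient groups extend to the right and the mitosis group to the left.

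Central carbon metabolism was followed next. Glycolysis and gluconeogenesis had 11 of 29 measured members higher and 2 lower (median 0.82). Pyruvate kinase, Pkm, was at 205 FPKM in WT against 695 FPKM in KO ileum (1.76). Enolase, Eno1, stood at 152 FPKM in WT against 367 FPKM in KO ileum (1.26). Lactate dehydrogenase A, Ldha, was listed at 929 FPKM in WT against 2034 FPKM in KO ileum (1.13). The monocarboxylate transporters were opposed: Slc16a3, which mainly exports lactate, was listed at 3.16 FPKM in WT and 48.5 FPKM in Vil-Ogt KO ileum, a difference of 3.57. Slc16a1, which carries lactate and butyrate, had 104 FPKM in WT and 19.7 FPKM in Vil-Ogt KO ileum, a difference of -2.34. Pck1, the cytosolic entry enzyme of gluconeogenesis, was higher at 9.06 FPKM in WT against 29.4 FPKM in KO ileum (1.60), as was pyruvate carboxylase Pcx (5.82 against 20.7 FPKM, 1.67). The TCA cycle had 1 of 26 measured members higher and 2 lower (median -0.22), with fumarase Fh1 lower at 133 FPKM in WT against 56.9 FPKM in KO ileum (-1.22). Cytosolic isocitrate dehydrogenase Idh1 was higher at 105 FPKM in WT against 229 FPKM in KO ileum (1.11).

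Fatty acid breakdown was read by compartment. The group had 5 of 34 measured members higher and 4 lower (median 0.22). Acat1, a mitochondrial thiolase of ketone body metabolism, stood at 54.6 FPKM in WT against 11 FPKM in KO ileum (-2.21). Mitochondrial entry and the first long-chain step were lower. Cpt1a, which passes long-chain fatty acids to carnitine, was listed at 81 FPKM in WT against 32.7 FPKM in KO ileum (-1.28). Acadvl, the very-long-chain dehydrogenase, had 79.9 FPKM in WT against 30.1 FPKM in KO ileum (-1.38). The peroxisomal thiolases were higher. Acaa1a was at 45.6 FPKM in WT against 108 FPKM in KO ileum (1.22). Acaa1b stood at 1.87 FPKM in WT against 9.78 FPKM in KO ileum (1.91). Pex11a, which divides peroxisomes, was listed at 11.5 FPKM in WT against 40.2 FPKM in KO ileum (1.72). Hao2, a peroxisomal hydroxyacid oxidase, stood apart from these at 74 FPKM in WT and 0.237 FPKM in Vil-Ogt KO ileum, a difference of -5.92. Angptl4, a secreted inhibitor of lipoprotein lipase and a target of PPAR receptors, was listed at 2.75 FPKM in WT and 61.4 FPKM in Vil-Ogt KO ileum, a difference of 4.06. Cholesterol synthesis had 1 of 25 measured members higher and 0 lower (median 0.19). Fatty acid synthesis had 2 of 15 measured members higher and 3 lower (median -0.56), with the desaturase Scd1 at 4.17 FPKM in WT against 12 FPKM in KO ileum (1.33). Malic enzyme Me1 had 12.7 FPKM in WT against 3.03 FPKM in KO ileum (-1.77).

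Mitochondrial carriers, which move metabolites across the inner membrane, had 7 of 40 measured members higher and 6 lower (median 0.06). Higher members included the ornithine carrier Slc25a15 at 35.5 FPKM in WT against 148 FPKM in KO ileum (2.03). The glutamate carrier Slc25a22 was at 20.4 FPKM in WT against 90.5 FPKM in KO ileum (2.10). The citrate carrier Slc25a1 stood at 86.8 FPKM in WT against 261 FPKM in KO ileum (1.58). The phosphate carrier Slc25a3 was equal at 541 FPKM in both genotypes. Of the ADP/ATP carriers, Slc25a4 was listed at 8.63 FPKM in WT against 46.2 FPKM in KO ileum (2.29). The far more abundant Slc25a5 had 1226 FPKM in WT against 2353 FPKM in KO ileum (0.94).

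Nitrogen pathways also differed step by step. In the arginine, citrulline and polyamine group, which had 4 of 24 measured members higher and 3 lower (median -0.01), inducible nitric oxide synthase Nos2 was at 10.5 FPKM in WT and 91.8 FPKM in Vil-Ogt KO ileum, a difference of 3.01. Mitochondrial arginase Arg2, which consumes arginine as Nos2 does, stood at 13.5 FPKM in WT and 89.9 FPKM in Vil-Ogt KO ileum, a difference of 2.64. Carbamoyl phosphate synthetase Cps1, which feeds citrulline formation, was lower at 269 FPKM in WT against 79.9 FPKM in KO ileum (-1.74). Ass1, which acts on citrulline to remake arginine, was lower at 10.9 FPKM in WT against 4.41 FPKM in KO ileum (-1.13). Serine, folate and methionine genes had 1 of 21 measured members higher and 2 lower (median -0.39). Cbs, which starts transsulfuration, was listed at 11.6 FPKM in WT and 0.178 FPKM in Vil-Ogt KO ileum, a difference of -3.41, whereas Cth, which completes it, had 89.3 FPKM in WT against 90.5 FPKM in KO ileum (0.02). Shmt2, the mitochondrial serine hydroxymethyltransferase, was lower at 27.1 FPKM in WT against 10.9 FPKM in KO ileum (-1.24). Aldh1l1, which burns excess formyl-folate, was higher at 39.1 FPKM in WT against 95 FPKM in KO ileum (1.26).

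Nucleotide synthesis and nucleotide breakdown leaned in opposite directions. Synthesis had 1 of 27 measured members higher and 6 lower (median -0.50), and several enzymes of the purine route were lower. Paics, of the middle steps, was at 30.1 FPKM in WT against 10.5 FPKM in KO ileum (-1.44). Atic, of the last steps to IMP, stood at 78.2 FPKM in WT against 33.8 FPKM in KO ileum (-1.19). Impdh2, which turns IMP toward GMP, was listed at 109.9 FPKM in WT against 49.9 FPKM in KO ileum (-1.12). The large subunit of ribonucleotide reductase, Rrm1, had 34.3 FPKM in WT against 14.8 FPKM in KO ileum (-1.16). Breakdown and salvage had 8 of 19 measured members higher and 1 lower (median 0.76). Adenosine deaminase, Ada, was at 11.8 FPKM in WT and 158 FPKM in Vil-Ogt KO ileum, a difference of 3.63. Uridine phosphorylase, Upp1, stood at 55.3 FPKM in WT and 671 FPKM in Vil-Ogt KO ileum, a difference of 3.58. Guanine deaminase Gda (25.3 against 136 FPKM, 2.38) and xanthine dehydrogenase Xdh (20.5 against 68.1 FPKM, 1.68), which forms uric acid, were higher. The extracellular nucleotidase Nt5e was listed at 0.796 FPKM in WT against 6.73 FPKM in KO ileum (2.11). Aprt, which salvages adenine, was the synthesis member that was higher, at 174 FPKM in WT against 369.6 FPKM in KO ileum (1.09).

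Enzymes for foreign compounds showed large differences in both directions. Cytochrome P450 and flavin enzymes had 15 of 29 measured members higher and 3 lower (median 1.04). Cyp3a11, a main steroid and drug hydroxylase, was listed at 0.113 FPKM in WT and 43.1 FPKM in Vil-Ogt KO ileum, a difference of 5.31. Cyp2b10, a target of the receptor CAR, had 0.0647 FPKM in WT against 15.5 FPKM in KO ileum (3.95). Cyp2c55, which oxidises arachidonic acid, differed in the other direction at 545 FPKM in WT and 39.9 FPKM in Vil-Ogt KO ileum, a difference of -3.74. Nr1i3, the gene for CAR, was listed at 0.678 FPKM in WT against 5.74 FPKM in KO ileum (2.0). Nr1i2, the gene for PXR, was at 24.4 FPKM in WT against 50.6 FPKM in KO ileum (1.02). Conjugating enzymes had 6 of 35 measured members higher and 8 lower (median 0.08): the sulfotransferase Sult1a1 stood at 131 FPKM in WT and 3.48 FPKM in Vil-Ogt KO ileum, a difference of -4.88. The glucuronosyltransferase Ugt2b5 was listed at 19.6 FPKM in WT against 1.37 FPKM in KO ileum (-3.12). The acetyltransferase Nat8 had 3.18 FPKM in WT against 54.6 FPKM in KO ileum (3.73). Carboxylesterases and related enzymes had 5 of 27 measured members higher and 8 lower (median -0.02). Ces1g, an esterase that hydrolyses lipids and drugs, was at 64.4 FPKM in WT and 0.184 FPKM in Vil-Ogt KO ileum, a difference of -5.79. Its neighbours in a stretch of chromosome 8 (mm10, chr8:93166067-93337209) were lower too, the joint locus Ces1d,Ces1e by more than 2 on the difference scale. The bounds of this stretch were likewise set by genes past that difference. Of the neighbours, Ces1f stood at 72.5 FPKM in WT against 13.9 FPKM in KO ileum (-2.30). Ces2e, of another carboxylesterase family, was listed at 218 FPKM in WT against 333 FPKM in KO ileum (0.61). NRF2 and glutathione genes had 4 of 28 measured members higher and 2 lower (median 0.22), with sulfiredoxin Srxn1 higher at 72 FPKM in WT against 208 FPKM in KO ileum (1.52). Thioredoxin Txn1 had 1144 FPKM in WT against 1003 FPKM in KO ileum (-0.19).

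Stress-response groups separated from each other. ER chaperone and unfolded protein genes had 1 of 30 measured members higher and 9 lower (median -0.65). Agr2, the disulfide isomerase needed for mucin folding, was at 1596 FPKM in WT and 455 FPKM in Vil-Ogt KO ileum, a difference of -1.81. Pdia5, another disulfide isomerase, stood at 41.4 FPKM in WT against 4.41 FPKM in KO ileum (-2.97). The ER HSP90 gene Hsp90b1 was listed at 556 FPKM in WT against 251 FPKM in KO ileum (-1.15). Canx, the lectin chaperone calnexin, was lower at 367 FPKM in WT against 159.8 FPKM in KO ileum (-1.19). Cytosolic and mitochondrial chaperones had 3 of 29 measured members higher and 5 lower (median -0.66). Hsp90ab1, the constitutive cytosolic HSP90, had 1053 FPKM in WT against 367 FPKM in KO ileum (-1.52). Its cochaperone Stip1 was at 115 FPKM in WT against 37.5 FPKM in KO ileum (-1.59). The mitochondrial chaperonin Hspd1 stood at 385 FPKM in WT against 144 FPKM in KO ileum (-1.41). Its lid Hspe1 was listed at 331 FPKM in WT against 144 FPKM in KO ileum (-1.19). The heat-inducible Hspa1a differed in the other direction, at 0.47 FPKM in WT against 2.91 FPKM in KO ileum (1.41). The ATF4 group had 5 of 25 measured members higher and 2 lower (median 0.39): the pseudokinase Trib3 had 0.412 FPKM in WT and 9.99 FPKM in Vil-Ogt KO ileum, a difference of 2.96. The CHOP gene Ddit3 was at 7.01 FPKM in WT against 23.8 FPKM in KO ileum (1.63). Atf4 itself stood at 112 FPKM in WT against 124 FPKM in KO ileum (0.14). Asparagine synthetase Asns, another known ATF4 target, was lower at 35.5 FPKM in WT against 15.3 FPKM in KO ileum (-1.16). Targets of p53 had 7 of 23 measured members higher and 0 lower (median 0.74), with the cyclin-dependent kinase inhibitor Cdkn1a at 90.5 FPKM in WT and 413 FPKM in Vil-Ogt KO ileum, a difference of 2.18. Mdm2, which feeds back on p53, was listed at 7.06 FPKM in WT against 18.1 FPKM in KO ileum (1.25).

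Immediate early genes, which answer growth and stress signals within minutes, had 11 of 25 measured members higher and 0 lower (median 0.76). Zfp36, which shortens the life of cytokine transcripts, had 17.5 FPKM in WT and 95 FPKM in Vil-Ogt KO ileum, a difference of 2.37. The ERK phosphatase Dusp6 was listed at 5.43 FPKM in WT against 28.8 FPKM in KO ileum (2.22). The AP-1 subunit Fos was at 15.8 FPKM in WT against 44.6 FPKM in KO ileum (1.44), while Jund stood at 122 FPKM in WT against 137 FPKM in KO ileum (0.17). Circadian clock genes had 6 of 16 measured members higher and 0 lower (median 0.90). Tef, a PAR-bZIP output factor, was listed at 3.94 FPKM in WT and 17.1 FPKM in Vil-Ogt KO ileum, a difference of 1.88. The repressor Cry1 had 4.66 FPKM in WT against 12.1 FPKM in KO ileum (1.21). Its relative Cry2 was at 1.35 FPKM in WT against 6.28 FPKM in KO ileum (1.63). Their partner Per2 stood at 2.01 FPKM in WT against 6.32 FPKM in KO ileum (1.28). The nuclear receptor Nr1d1, a repressor of Bmal1, was listed at 11.3 FPKM in WT against 34.3 FPKM in KO ileum (1.52). The time of day of collection is not given in the sources used here.

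The E-box CACGTG, the motif of the CLOCK and BMAL1 pair, was searched on both strands in the same 300-base windows. It was found in 3 of 12 clock genes with a window (25%), 11.6% of all named genes and 7.15% of all windows, the last counted singly. The share was 11.7% of genes higher in KO ileum and 10.6% of those lower, both near that of all named genes. For Tef and Cry1 the 250 bases before the start are printed with the E-box in capitals, to show the searched element. Both were taken from clock genes whose printed bases hold the match, so members without a match were passed over.
Tef (chr15:81802423-81802672, plus strand): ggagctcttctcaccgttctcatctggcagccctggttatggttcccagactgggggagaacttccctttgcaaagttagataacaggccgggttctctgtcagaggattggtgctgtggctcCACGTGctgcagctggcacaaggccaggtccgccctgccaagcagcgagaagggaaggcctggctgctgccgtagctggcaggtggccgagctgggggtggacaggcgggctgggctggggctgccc
Cry1 (chr10:85185055-85185304, minus strand): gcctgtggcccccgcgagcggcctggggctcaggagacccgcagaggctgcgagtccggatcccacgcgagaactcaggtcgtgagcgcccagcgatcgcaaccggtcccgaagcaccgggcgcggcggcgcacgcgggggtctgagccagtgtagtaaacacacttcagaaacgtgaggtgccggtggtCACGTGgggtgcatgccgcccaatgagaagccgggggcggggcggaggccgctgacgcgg

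The machinery of gene expression showed a small difference in 1 direction over many genes. Cytosolic ribosomal protein genes had 0 of 79 measured members higher and 29 lower (median -0.93), and they made up 17.9% of the summed FPKM of named genes in WT and 10.5% in KO ileum. Rplp1, a stalk protein, had 4068 FPKM in WT against 1574 FPKM in KO ileum (-1.37). Rpl23a, of the large subunit, was at 2320.2 FPKM in WT against 792 FPKM in KO ileum (-1.55). Many ribosomal protein genes have processed pseudogenes with near-identical sequence, and the counting could have split reads among them. Elongation factor Eef1a1 was listed at 4871 FPKM in WT against 2978 FPKM in KO ileum (-0.71). The poly(A)-binding protein Pabpc1 had 576 FPKM in WT against 272 FPKM in KO ileum (-1.08), within a translation factor group that had 1 of 36 measured members higher and 3 lower (median -0.26). Eif6, which keeps the large subunit from joining the small, was the exception at 155 FPKM in WT against 357 FPKM in KO ileum (1.19). Ribosome biogenesis genes had 0 of 40 measured members higher and 3 lower (median -0.38), with Npm1, nucleophosmin, at 405 FPKM in WT against 186 FPKM in KO ileum (-1.12).

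Nuclear genes for mitochondrial proteins had medians closer to 0. Mitochondrial ribosomal proteins had 0 of 76 measured members higher and 5 lower (median -0.30), complex I had 0 of 36 measured members higher and 4 lower (median -0.53), complexes II to IV had 1 of 25 measured members higher and 2 lower (median -0.45), and ATP synthase had 0 of 16 measured members higher and 2 lower (median -0.62). The complex I member furthest below WT was Ndufa3 at 739 FPKM in WT against 179 FPKM in KO ileum (-2.04). Cox7a1, an isoform of complex IV best known from muscle, was the exception at 136 FPKM in WT against 393 FPKM in KO ileum (1.52). Other core groups had few members past 2-fold, with splicing factors at 0 of 48 measured members higher and 0 lower (median -0.32), tRNA synthetases at 0 of 21 measured members higher and 3 lower (median -0.35), nuclear pore genes at 0 of 25 measured members higher and 3 lower (median -0.49), and proteasome genes at 0 of 46 measured members higher and 0 lower (median -0.03).

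**Figure D5:**
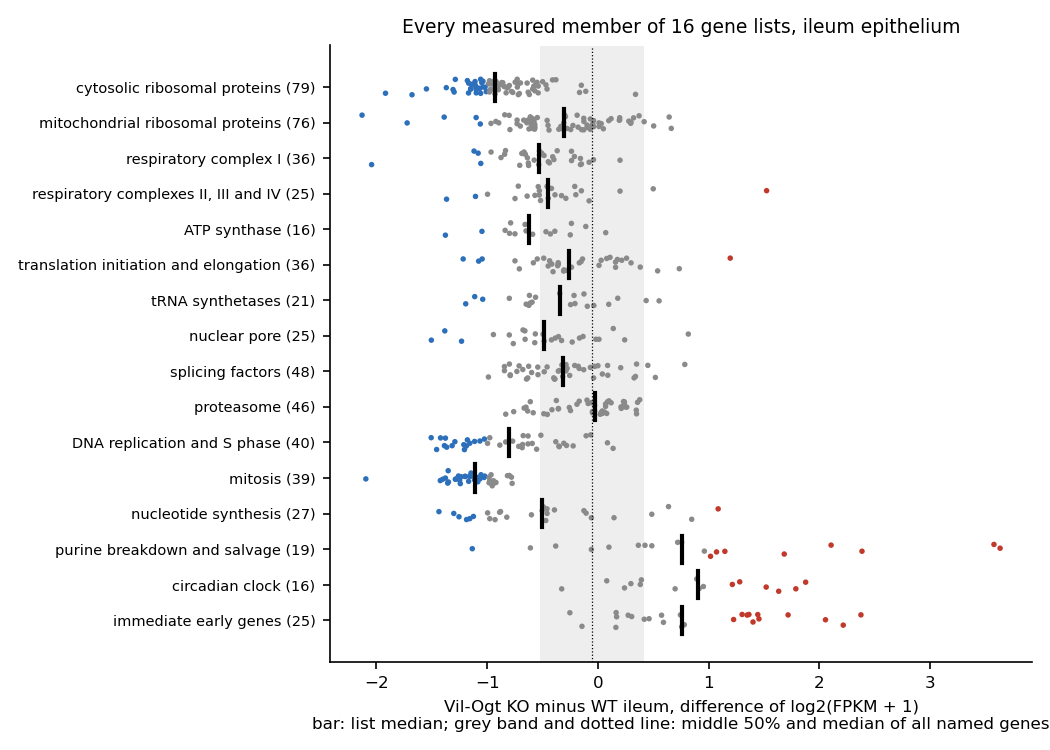
Difference between Vil-Ogt KO and WT ileum on the log2(FPKM + 1) scale for each measured member (points) of groups of the gene expression and energy machinery, with the group median as a bar, the grey band and dotted line giving the quartiles and median of all named genes, and red and blue points lying past 2-fold. Cytosolic ribosomal protein genes have a median of -0.93, the splicing factors -0.32 and the proteasome genes -0.03.

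Proliferation genes were lower as groups, whereas Ki-67 staining in the paper showed more proliferating epithelial cells in Vil-Ogt KO ileum. Mitosis genes had 0 of 39 measured members higher and 27 lower (median -1.11), the largest share of lower genes among the crypt groups, and DNA replication genes had 0 of 40 measured members higher and 16 lower (median -0.80). Hmmr, a spindle protein, was at 17.8 FPKM in WT against 3.39 FPKM in KO ileum (-2.10). Cdc20, an activator of the anaphase-promoting complex, stood at 67.6 FPKM in WT against 24.6 FPKM in KO ileum (-1.42). Ube2c, its ubiquitin-conjugating enzyme, was listed at 174 FPKM in WT against 70.5 FPKM in KO ileum (-1.29). Of the replicative helicase, Mcm6 had 48.2 FPKM in WT against 16.9 FPKM in KO ileum (-1.46). Its ring partner Mcm4 was at 23.3 FPKM in WT against 8.28 FPKM in KO ileum (-1.39). The histone variant H2afx, which is phosphorylated at DNA breaks, was lower at 125 FPKM in WT against 45.9 FPKM in KO ileum (-1.43), within a histone group that had 0 of 43 measured members higher and 4 lower (median -0.40). Cyclins and kinase inhibitors had 3 of 22 measured members higher and 2 lower (median -0.31): besides Cdkn1a, Ccng2, a cyclin of non-dividing cells, was higher at 16.7 FPKM in WT against 64 FPKM in KO ileum (1.88).

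Many mitosis genes are known to share a promoter element, the cell cycle genes homology region, here read as TTTGAA on both strands and usually found near CCAAT boxes. It was present in 24 of 32 mitosis genes with a window (75%). The share was 14.1% of all named genes, 15% of the genes that were higher, 16.9% of those lower and 17.9% of all windows. As before, a gene counted where any of its windows held the motif, whereas all windows were counted singly. CCAAT was present in 25 of 32 (78.1%), against 43% of all named genes and 37.4% of all windows. The 150 bases before the start are printed for 3 mitosis genes that hold both, with both motifs in capitals on either strand.
Cdc20 (chr4:118437344-118437493, minus strand): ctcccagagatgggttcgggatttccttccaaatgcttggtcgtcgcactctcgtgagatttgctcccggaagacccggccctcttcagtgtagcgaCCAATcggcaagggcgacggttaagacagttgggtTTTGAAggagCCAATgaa
Ube2c (chr2:164769779-164769928, plus strand): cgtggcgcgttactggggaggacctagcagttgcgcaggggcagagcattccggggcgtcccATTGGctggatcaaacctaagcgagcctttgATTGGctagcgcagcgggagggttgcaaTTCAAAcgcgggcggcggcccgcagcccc
Top2a (chr11:99024190-99024339, minus strand): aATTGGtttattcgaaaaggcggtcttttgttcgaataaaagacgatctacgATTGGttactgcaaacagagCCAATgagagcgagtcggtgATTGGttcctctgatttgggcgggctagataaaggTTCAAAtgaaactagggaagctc

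Crypt signalling was read by pathway. Stem cell and Wnt target genes had 0 of 26 measured members higher and 10 lower (median -0.74), with Lgr5, the receptor that marks crypt base columnar cells, at 2.79 FPKM in WT against 0.193 FPKM in KO ileum (-1.67). Olfm4, a secreted stem cell product, stood at 380.0 FPKM in WT against 52.3 FPKM in KO ileum (-2.84). Prom1, a membrane protein of crypt cells, was listed at 107 FPKM in WT against 13.3 FPKM in KO ileum (-2.92). Wnt ligands, receptors and inhibitors had 2 of 23 measured members higher and 5 lower (median -0.25). Wls, which escorts Wnt proteins to the surface, was lower at 47.5 FPKM in WT against 10.4 FPKM in KO ileum (-2.09). The receptor Fzd5 was lower at 52.7 FPKM in WT against 20.1 FPKM in KO ileum (-1.35). Beta-catenin, Ctnnb1, had 331 FPKM in WT against 329 FPKM in KO ileum (-0.01). The Notch group had 0 of 18 measured members higher and 3 lower (median -0.16). The receptor Notch1 was lower at 3.2 FPKM in WT against 0.847 FPKM in KO ileum (-1.19). The target Hes1 was lower at 33.4 FPKM in WT against 14.52 FPKM in KO ileum (-1.15). Nrarp, a target that feeds back on the pathway, was at 41.9 FPKM in WT against 15.8 FPKM in KO ileum (-1.36). BMP, TGF-beta and hedgehog genes had 2 of 29 measured members higher and 4 lower (median 0.17), with the hedgehog transducer Smo at 5.58 FPKM in WT against 0.599 FPKM in KO ileum (-2.04). The TGF-beta receptor Tgfbr1 stood at 7.41 FPKM in WT against 1.16 FPKM in KO ileum (-1.96). The BMP target Id2 was listed at 16.6 FPKM in WT against 70.5 FPKM in KO ileum (2.03). EGF family genes had 3 of 24 measured members higher and 4 lower (median -0.36): the ligands Ereg (1.06 against 4.92 FPKM, 1.52) and Hbegf (5.58 against 14 FPKM, 1.19) were higher. The feedback inhibitor Lrig1 was lower at 21 FPKM in WT against 5.78 FPKM in KO ileum (-1.70). YAP targets and fetal-like genes had 7 of 23 measured members higher and 3 lower (median 0.31), against a median of -0.81 among members averaging 10 FPKM or more. Clu, clusterin, had 11.5 FPKM in WT against 2.17 FPKM in KO ileum (-1.97). Anxa1, an annexin of repairing epithelium, was at 4.5 FPKM in WT against 13.1 FPKM in KO ileum (1.36). Eph, ephrin and semaphorin genes, which position cells along the crypt and villus, had 3 of 28 measured members higher and 8 lower (median -0.36), with the receptor Ephb4 at 34.5 FPKM in WT against 6.77 FPKM in KO ileum (-2.19). The receptor Epha2 stood at 7.73 FPKM in WT against 30.1 FPKM in KO ileum (1.83).

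Secretory cells were described by product. Paneth granule genes had 14 of 18 measured members higher and 1 lower (median 2.82). Lysozyme, Lyz1, was listed at 55.3 FPKM in WT and 936 FPKM in Vil-Ogt KO ileum, a difference of 4.06. The alpha-defensin Defa24 had 719 FPKM in WT and 7697 FPKM in Vil-Ogt KO ileum, a difference of 3.42. The alpha-defensin genes sit in 1 cluster on chromosome 8 (mm10, chr8:21025544-21735471), where 17 of 19 named genes had a difference above 2. The bounds of this stretch were set by genes past that difference. These genes are near-identical copies, so the level of a single member is uncertain. The direction was shared by 10 of 10 genes named Defa, but reads shared among copies mean that these are not independent cases. Lysozyme and the alpha-defensins are products of the small intestine, and the part of the region shift in their values was not tested. By quantitative PCR of ileum tissue, the paper reported defensin transcripts lower and Lyz1 unchanged in Vil-Ogt KO mice, unlike the values here. The paper also reported fewer Paneth cells and smaller granules in Vil-Ogt KO ileum by microscopy, which are not RNA measures. Leap2, a cationic antimicrobial peptide of enterocytes, was at 0.156 FPKM in WT and 67.2 FPKM in Vil-Ogt KO ileum, a difference of 5.88. Inducible defence genes of the epithelium went the other way, with 4 of 26 measured members higher and 13 lower (median -0.84), and their summed level was 50229 FPKM in WT and 20164 FPKM in KO ileum. The highest difference of this group, 3.27, was that of S100a8, read above as a neutrophil gene. Besides Reg3b and Reg3g, Saa1, serum amyloid A, stood at 117 FPKM in WT against 22.6 FPKM in KO ileum (-2.32). Nox1, an oxidase of the colonic epithelium, was listed at 28.8 FPKM in WT against 5.86 FPKM in KO ileum (-2.12). Dmbt1, a secreted scavenger protein that binds bacteria, had 3019 FPKM in WT and 191 FPKM in Vil-Ogt KO ileum, a difference of -3.97. Reg4 and Retnlb, also lower in this group, are better known from the large intestine. Reg4 was at 272 FPKM in WT against 23.3 FPKM in KO ileum (-3.49). Retnlb stood at 78.2 FPKM in WT against 1.17 FPKM in KO ileum (-5.19).

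Goblet cell and mucus genes had 2 of 27 measured members higher and 8 lower (median -0.76). The trefoil peptide Tff3 was listed at 2574 FPKM in WT against 1746 FPKM in KO ileum (-0.56). The membrane mucin Muc4 had 10.6 FPKM in WT against 1.24 FPKM in KO ileum (-2.37). The kallikrein Klk1 was at 147 FPKM in WT against 17.3 FPKM in KO ileum (-3.02). Gcnt1, which branches O-glycans, was higher at 1.06 FPKM in WT against 11.5 FPKM in KO ileum (2.60). Enzymes of glycan ends had 1 of 30 measured members higher and 11 lower (median -0.56). Fut2, which builds the fucose cap that gut bacteria use, stood at 13.8 FPKM in WT against 2.01 FPKM in KO ileum (-2.30). St3gal5, which makes the ganglioside GM3, was listed at 11.2 FPKM in WT and 0.138 FPKM in Vil-Ogt KO ileum, a difference of -3.42. B4galnt2, which makes the Sda glycan of the distal gut, had 302 FPKM in WT against 115 FPKM in KO ileum (-1.39). Enteroendocrine genes had 4 of 32 measured members higher and 5 lower (median 0.02). Ghrelin, Ghrl, a hormone of the proximal gut, was at 6.82 FPKM in WT against 39.7 FPKM in KO ileum (2.38). Gip, another proximal hormone, stood at 3.32 FPKM in WT against 11.1 FPKM in KO ileum (1.48). The distal hormone Pyy was listed at 96.3 FPKM in WT against 97 FPKM in KO ileum (0.01). Tac1, the precursor of substance P, was lower at 21.4 FPKM in WT against 2.62 FPKM in KO ileum (-2.63). The granule protein Chga had 30.3 FPKM in WT against 11.5 FPKM in KO ileum (-1.33). Galanin, Gal, was listed at 0 in WT and 0.92 FPKM in KO ileum. Tuft cell genes had 0 of 16 measured members higher and 1 lower (median -0.48), with Rgs13, a regulator of G protein signalling, at 3.66 FPKM in WT against 0.178 FPKM in KO ileum (-1.98). The kinase Dclk1 was at 0.674 FPKM in WT against 0.0229 FPKM in KO ileum (-0.71).

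Immune genes were read with the T cell markers in view, whose summed level was 117 FPKM in WT and 632 FPKM in KO ileum. Microbe sensing genes had 5 of 30 measured members higher and 6 lower (median -0.23): Tlr2 stood at 7.26 FPKM in WT against 1.01 FPKM in KO ileum (-2.04). The inflammasome adaptor Pycard was listed at 249 FPKM in WT against 108 FPKM in KO ileum (-1.20). The NF-kB inhibitor Nfkbia had 41.9 FPKM in WT against 96.3 FPKM in KO ileum (1.18). MHC class I genes had 3 of 23 measured members higher and 1 lower (median 0.04), with the light chain B2m at 1489 FPKM in WT against 1574 FPKM in KO ileum (0.08). MHC class II genes had 0 of 11 measured members higher and 0 lower (median 0.12). Interferon-stimulated genes had 6 of 37 measured members higher and 2 lower (median 0.39), with Oasl1, which dampens interferon production, at 6.82 FPKM in WT and 85 FPKM in Vil-Ogt KO ileum, a difference of 3.46. Zbp1, a sensor of Z-form nucleic acid, was at 18 FPKM in WT against 75.1 FPKM in KO ileum (2.0). Tetherin, Bst2, stood at 26 FPKM in WT against 3.71 FPKM in KO ileum (-2.52). Cytokine and chemokine genes had 10 of 34 measured members higher and 5 lower (median 0.39). Ccl20, which draws cells to lymphoid follicles, was lower at 15 FPKM in WT against 2.2 FPKM in KO ileum (-2.32). Ccl28, a chemokine for plasma cells mainly of the large intestine, was listed at 51.6 FPKM in WT against 19 FPKM in KO ileum (-1.39). Ccl25, the small-intestinal chemokine, had 319.6 FPKM in WT against 560.3 FPKM in KO ileum (0.81). Il33, an alarmin, was at 0.637 FPKM in WT against 3.58 FPKM in KO ileum (1.48). The JAK and STAT family had 3 of 20 measured members higher and 0 lower (median -0.04), with the feedback inhibitor Socs3 at 5.39 FPKM in WT against 17.6 FPKM in KO ileum (1.54). The kinase Jak2 stood at 15.5 FPKM in WT against 36.5 FPKM in KO ileum (1.19). Complement and coagulation genes had 7 of 22 measured members higher and 2 lower (median -0.05): the clotting inhibitor Tfpi was listed at 17.6 FPKM in WT and 0.426 FPKM in Vil-Ogt KO ileum, a difference of -3.71. Tissue plasminogen activator, Plat, had 0.173 FPKM in WT against 7.94 FPKM in KO ileum (2.93).

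Cell death and degradation genes held contrasts within families. Caspases, gasdermins and necroptosis genes had 5 of 28 measured members higher and 4 lower (median 0.42). Whereas the gasdermin C loci were lower, Gsdmd, the pore-forming target of inflammatory caspases, was at 38.6 FPKM in WT and 206 FPKM in Vil-Ogt KO ileum, a difference of 2.39. Gasdermin E, listed as Dfna5, stood at 26.9 FPKM in WT and 133 FPKM in Vil-Ogt KO ileum, a difference of 2.27. The BCL2 family had 2 of 19 measured members higher and 0 lower (median 0.23), with the mitophagy receptor Bnip3 at 3.12 FPKM in WT against 26.4 FPKM in KO ileum (2.73). The BH3-only gene Pmaip1 was listed at 5.66 FPKM in WT against 17.8 FPKM in KO ileum (1.49). Autophagy genes had 2 of 33 measured members higher and 0 lower (median 0.22), with the receptor optineurin, Optn, at 15.8 FPKM in WT against 87.4 FPKM in KO ileum (2.40). Sqstm1, which encodes p62, had 58.9 FPKM in WT against 113 FPKM in KO ileum (0.93). Lysosomal genes had 4 of 47 measured members higher and 6 lower (median -0.02): the sialidase Neu1 was higher at 22.6 FPKM in WT against 109.9 FPKM in KO ileum (2.23). Prosaposin, Psap, was lower at 422 FPKM in WT against 124 FPKM in KO ileum (-1.76).

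Genes of cell structure were read from the apical to the basal side. Microvillus and terminal web genes had 15 of 27 measured members higher and 0 lower (median 1.25), and 27 of 27 lay above 0. Ezrin, Ezr, which ties actin to the membrane, was at 152 FPKM in WT and 843 FPKM in Vil-Ogt KO ileum, a difference of 2.46. Its scaffold partner Slc9a3r1 stood at 184 FPKM in WT and 1053 FPKM in Vil-Ogt KO ileum, a difference of 2.51. Villin, Vil1, was listed at 369.6 FPKM in WT against 1184 FPKM in KO ileum (1.68). The Cre transgene uses the Villin promoter, and Vil1 here is the native gene. Plastin 1, Pls1, a bundling protein of the core filaments, was listed at 141 FPKM in WT against 662 FPKM in KO ileum (2.22). Tight junction genes had 2 of 26 measured members higher and 3 lower (median 0.11), but single claudins differed. Cldn4, of the mature surface, had 12.2 FPKM in WT against 73 FPKM in KO ileum (2.49). Cldn8, a barrier-forming claudin of the colon, was at 13 FPKM in WT against 1.13 FPKM in KO ileum (-2.72). Cldn2, which forms a cation and water pore, stood at 159 FPKM in WT against 73 FPKM in KO ileum (-1.11). Adherens junction and desmosome genes had 0 of 21 measured members higher and 1 lower (median -0.13), with E-cadherin, Cdh1, at 338 FPKM in WT against 199 FPKM in KO ileum (-0.76). Integrin and basement membrane genes had 1 of 25 measured members higher and 2 lower (median 0.05), and keratins had 2 of 14 measured members higher and 1 lower (median 0.18), with Krt23, a type I keratin, at 1.27 FPKM in WT against 21.1 FPKM in KO ileum (3.28). Krt20, a keratin of mature surface cells, was listed at 630.3 FPKM in WT against 1872 FPKM in KO ileum (1.57). Annexins and S100 genes had 9 of 24 measured members higher and 4 lower (median 0.52), with the membrane-binding Anxa13 at 64.9 FPKM in WT against 331 FPKM in KO ileum (2.33). Anxa2, another membrane-binding annexin, had 648 FPKM in WT against 1552 FPKM in KO ileum (1.26). Anxa2's partner S100a10 was at 910.2 FPKM in WT against 2241 FPKM in KO ileum (1.30).

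Regulators of transcription were described last. Nuclear receptors had 4 of 30 measured members higher and 2 lower (median -0.06), and the ileal bile acid receptor FXR, Nr1h4, stood at 82.7 FPKM in WT against 111 FPKM in KO ileum (0.42). Hnf4a, a receptor that maintains enterocyte genes, was listed at 284 FPKM in WT against 319.6 FPKM in KO ileum (0.17). Transcription factors of gut identity had 9 of 35 measured members higher and 0 lower (median -0.11). Gata4, a factor of the proximal small intestine, had 0.521 FPKM in WT and 9.38 FPKM in Vil-Ogt KO ileum, a difference of 2.77. Maf, a bZIP factor of enterocytes, was at 40.2 FPKM in WT against 140.1 FPKM in KO ileum (1.77). The caudal factor Cdx1 was listed at 300.2 FPKM in WT against 189 FPKM in KO ileum (-0.67). Klf5, a factor of crypt cells, had 282 FPKM in WT against 206 FPKM in KO ileum (-0.45). Homeobox genes, whose expression follows position along the gut, had 1 of 14 measured members higher and 2 lower (median -0.65), with Hoxd8 at 0.145 FPKM in WT against 1.97 FPKM in KO ileum (1.38). Hoxa10, a gene of the posterior end, was at 0.829 FPKM in WT against 0.0121 FPKM in KO ileum (-0.85). DNA methylation and Polycomb genes had 0 of 36 measured members higher and 1 lower (median -0.08), with Uhrf1, which guides maintenance methylation, at 32.4 FPKM in WT against 11.9 FPKM in KO ileum (-1.38). Of 14 imprinted genes 1 was higher and 1 lower (median 0.27), the growth regulator Plagl1 standing at 0.105 FPKM in WT against 5.5 FPKM in KO ileum (2.56). Numbered zinc finger genes, 275 in all, had 5 higher and 14 lower with a median of -0.21. Their median level was 2.64 FPKM in WT and 2.22 FPKM in KO ileum. Below 1 FPKM lay 58 of them in WT and 79 in KO ileum, and the scale understates change at such levels.

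Genes were also sorted by family symbol alone. Of 9 Slc5 genes, mostly sodium-coupled sugar and vitamin transporters, 7 were higher, and of 9 Slc6 genes, sodium-coupled amino acid and amine transporters, 4 were higher. Of 11 annexin genes 5 were higher, and of 34 Cyp genes 13 were higher and 6 lower. On the lower side stood 6 of 10 Mcm genes of DNA replication and 6 of 12 Alg genes, which build the N-glycan precursor in the endoplasmic reticulum. By chromosome, chromosome 19 had the highest share of higher genes, 74 of 469 (15.8%). Among genes outside these groups, Acta1, skeletal muscle actin, stood at 3.46 FPKM in WT against 108 FPKM in KO ileum (4.61). Myot, a sarcomere protein, was listed at 0.266 FPKM in WT against 20.4 FPKM in KO ileum (4.08), beside a stromal and muscle marker list with 0 of 10 members higher. Pla2g4c, a phospholipase A2, was lower at 96.3 FPKM in WT against 2.06 FPKM in KO ileum (-4.99). Mal, a raft protein of apical sorting, had 58.9 FPKM in WT against 1.75 FPKM in KO ileum (-4.44).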

How the data were processed

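RNA of ileal and colonic IECs from Vil-Ogt KO and WT mice was sequenced on an Illumina HiSeq. The submitters' processing notes name TopHat (version 1.0.0), Bowtie, Cufflinks and the mouse build mm10. The authors deposited, per tissue, 1 table of log2 FPKM values with 2 pooled columns, control and comparison, in which -10 stands for no measured expression and was read as 0 FPKM. Columns of the authors' own comparison (log2 ratio, q-value and a significance flag) were not used. Read totals are not given in the sources used here, so the depth and the precision it allows are unknown.

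FPKM values were recovered from the log2 values, which carry 2 decimals, and compared as log2(FPKM + 1) with Python 3.11.15, pandas 2.3.3 and numpy 2.4.6. Loci without a gene name were left out, and of 309 names with more than 1 locus the locus with the highest mean was kept. A joint name of several genes (271 names) was counted once. No filter on level was applied. The ileum and colon tables were normalized separately, and colon values are given only beside ileum values. No test was run, since each genotype has 1 value. The calculations were checked on simulated data.

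Eligible for naming were the 25 genes with the highest and the 25 with the lowest difference, the 15 most abundant of each genotype, Ogt and Mgea5. All members of the marker lists were eligible too. Per functional group, so were up to 8 members with the largest difference in either direction and the 3 most abundant. From these, genes with well-known roles were written out. Some members are counted in their groups and not reported here by name. The groups, their members and the promoter motifs were chosen with earlier results of these data known. Promoter windows came from RefSeq (GRCm38.p6, 32851 windows), matched by symbol for 9218 of 12675 named genes. Alternatives were another pseudocount, filters on level, other scalings, summed loci and lists without markers of region and other cells.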

Additional observations from a re-analysis of the deposited data

Results flagged for a closer look

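The report covers named genes, and the loci without a gene name were left outside its comparisons. Of these 3505 loci, 568 were higher in Vil-Ogt KO ileum by at least 1 on the log2(FPKM + 1) scale (16.2%) and 133 were lower (3.79%), with a median difference of 0.47. Their median level was 0.540 FPKM in WT and 0.959 FPKM in KO ileum. They are given because they lie outside the comparisons of the report and their median level in KO ileum was above that in WT, the control. With 1 value per genotype this count has no replicate check.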

How the results depend on the processing

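The counts of 1164 higher and 1164 lower genes depended on the threshold and on how low values were treated. They were 301 and 163 at a difference of at least 2, 1869 and 1792 with a pseudocount of 0.1 FPKM, 1935 and 1918 with no pseudocount and genes listed at 0 left out, and 666 and 625 among genes averaging 10 FPKM or more. Other settings kept both counts within 1.5 times: an average of 1 FPKM or more gave 1120 and 1131, centring on the median 1302 and 968, scaling without the 100 most abundant genes 1153 and 1176, summing loci 1165 and 1162, and leaving out region and other-cell markers, added after seeing the data, 1110 and 1146. Of 96 group medians, 13 changed sign under some setting, 8 of which lay within 0.1 of 0 as reported. Of these 8, the largest values of opposite sign were 0.62 for the JAK and STAT family and -0.47 for enteroendocrine genes at an average of 10 FPKM or more, and 0.72 for complement and coagulation at an average of 1 or 10 FPKM or more. The other 5 were further from 0. At an average of 10 FPKM or more the myeloid median was -1.57, the YAP and fetal-like median -0.81, the numbered zinc finger median 0.0094 and the pancreatic enzyme median -0.30, the last also at an average of 1 FPKM or more, where fewer members were left. Without region and other-cell markers the chloride, bicarbonate and sodium median was 0.049. No paired analysis was possible because the tables give 1 value per genotype, and for the same reason no library could be left out. The depth behind low values is unknown, so differences of genes near 0 FPKM cannot be told from counting error.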

Other observations

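An exact 0 was listed for 35 named genes in WT and for 11 in Vil-Ogt KO ileum, and none was listed at 0 in both. The highest level of such a gene in the other genotype was 142 FPKM in KO ileum and 190.0 FPKM in WT ileum, so some listed zeros stand opposite well expressed values. Of the 1164 higher genes 15 were listed at 0 in WT, and of the 1164 lower genes 6 were listed at 0 in KO ileum. No named gene had less than 0.321 FPKM in its higher genotype.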
